A study of Cavia porcellus with 35 samples.

Results

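The dopamine receptor genes DRD1, DRD2, DRD3, DRD4 and DRD5 and the monoamine oxidase genes MAOA and MAOB were followed in the prefrontal cortex (PFC) of guinea pigs (Cavia porcellus). These 7 genes were chosen by their symbols, matched without regard to case, among the 12100 symbols that appear in at least 1 of 4 count tables, and 6 of them could be analysed. DRD4 was not analysed here, and DRD5 was not analysed here in F3 females. The tables cover 35 juvenile animals at postnatal day 40, with 1 library per animal and 1 table for each of F1 females, F2 females, F3 females and F1 males. Beta animals are F1 offspring of pregnant guinea pigs given repeated courses of betamethasone, a synthetic glucocorticoid, in late gestation, or their F2 and F3 descendants. Control animals are F1 offspring of pregnant guinea pigs given saline, or their F2 and F3 descendants. The F2 and F3 females descend through the paternal line, from F1 and F2 males mated to females that were not part of the experiment, so neither these animals nor their own mothers received the drug. Each female table holds 4 Control and 4 Beta animals, and the male table holds 5 Control and 6 Beta animals.

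Dopamine released into the cortex acts on G protein-coupled receptors of a pair of classes. D1-class receptors (DRD1, DRD5) couple to stimulatory G proteins and raise cyclic AMP, and D2-class receptors (DRD2, DRD3, DRD4) couple to inhibitory G proteins and lower it. In PFC, DRD1 is the more abundant class and is carried largely by pyramidal neurons, whereas in the striatum both DRD1 and DRD2 mark the principal, medium spiny neurons. Dopamine taken up again by cells is broken down on the outer mitochondrial membrane by monoamine oxidase A, found mainly in catecholamine neurons, and monoamine oxidase B, found mainly in serotonin neurons and astrocytes. PPP1R1B encodes DARPP-32, a phosphatase inhibitor that acts downstream of DRD1 and is far more abundant in striatum than in cortex. It was used here as a stand-in for striatal RNA in each punch.

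Library totals, summed over the listed genes, lay between 12819964 and 17052339 reads in F1 and F2 females, between 14135131 and 19551079 in F3 females and between 25697953 and 31763585 in F1 males. Levels are given as CPM, the count of a gene relative to the library total, scaled between the libraries of a table by TMM normalization. Female and male tables were counted and normalized separately, so Beta was compared with Control within each table. A gene was called changed when the FDR (the p-value of edgeR's quasi-likelihood test, adjusted by Benjamini and Hochberg over all genes tested in the table) was under 0.05. The labels name the prefrontal cortex as the tissue, but their extraction protocol names the paraventricular nucleus of the hypothalamus. SLC17A7, the glutamate transporter of cortical excitatory neurons, ranged from 171 to 3576 CPM, whereas the markers of the paraventricular nucleus that were measured summed to between 6.59 and 19.3 CPM in every animal.

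The F1 female libraries differed in cell content. PPP1R1B was at 1279, 242, 424 and 1177 CPM in the 4 Control animals and between 81.9 and 289 CPM in the Beta group (log2 fold change -2.30, SE 0.60, FDR = 0.034, edgeR). Control animals 1 and 4 stood apart from the other 6. Of 18 striatal markers tested in this table, 15 were called lower in Beta animals and 0 higher, beside 7.33% and 9.21% of all genes. Their summed level was 2056 to 6226 CPM in Control and 1362 to 1977 CPM in Beta animals, and no marker was at 0 in any animal. SLC17A7 was at 171 to 989 CPM in Control and 884 to 3576 CPM in Beta animals (log2 fold change 2.03, FDR = 0.057), and in F3 females at 467 to 811 CPM in Control and 933 to 1169 CPM in Beta animals (0.72, FDR = 0.078). Neither difference passed the test, and 0 of the 7 cortical excitatory neuron markers tested were called in either table without adjustment. Of all genes, 16.5% were called in F1 females and 1.34% in F3 females. The part of SLC17A7 itself in the differences of single members was not tested. In F2 females, PPP1R1B was level between groups, with means of 80.1 CPM in Control and 79.9 CPM in Beta animals. In F3 females, it was 265 CPM in Control and 134 CPM in Beta animals (log2 fold change -0.98, FDR = 0.21). In F1 males, it was lowest, at 21.5 CPM in Control and 23.9 CPM in Beta animals. Every comparison was made without and with adjustment for the log2 CPM of PPP1R1B. With the adjustment, 6 of the 7 cortical excitatory neuron markers were higher in F1 Beta females, SLC17A7 among them (3.34, FDR = 0.023). All 8 oligodendrocyte markers were lower there, beside 8.2% of all genes called higher and 8.17% lower. In F3 females, 0 of the 7 excitatory neuron markers were called, beside 0.0175% of all genes. The adjusted F1 female fit therefore still held differences in cell markers. In bulk tissue, fewer cells of a type and less RNA per cell cannot be told apart.

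DRD1, the main D1-class receptor, was higher in F2 Beta females than in F2 Controls. The Control animals had 21.9, 21.9, 17.7 and 18.3 CPM and the Beta animals had 41.9, 27.2, 49.5 and 36.3 CPM. Every Beta animal was above every Control animal, as was the case for 3.86% of all genes in this table. The means were 20.0 ± 2.26 and 38.7 ± 9.41 CPM (SD, n = 4 each), a log2 fold change of 0.96 (SE 0.16, FDR = 0.044, edgeR). Adjusted for PPP1R1B, it was also 0.96 (SE 0.11, FDR = 0.0049). The unadjusted FDR stood close to the threshold. When single animals were left out, this call was kept without Control 1 or Beta 2 and lost without any of the other 6 (FDR 0.077 to 0.167), whereas the adjusted call was kept in each of the 8 fits. Of all genes, 0 were called without Control 2, 3 or 4 or Beta 1 or 3, and 7 of 11162 without Beta 4. The unadjusted log2 fold change of DRD1 stayed between 0.82 and 1.10 in the 8 fits.

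Cell markers also differed on average between the F2 groups, with deep layer and oligodendrocyte markers higher and upper layer markers lower in Beta females. The 10 deep cortical layer markers summed to 677 to 784 CPM in Control and 752 to 1054 CPM in Beta animals. Those of the upper layers summed to 1298 to 1609 CPM in Control and 927 to 1222 CPM in Beta animals, with no overlap. The 8 oligodendrocyte markers that were measured summed to 3252 to 5044 CPM in Control and 4819 to 11360 CPM in Beta animals. The mean log2 CPM over the genes of 1 list then took the place of PPP1R1B in the model. The DRD1 difference fell to 0.31 with the deep layer list (FDR = 0.996), 0.27 with the upper layer list (FDR = 0.999) and 0.29 with the oligodendrocyte list (FDR = 0.87). Because the upper layer sums did not overlap, that fit cannot tell the list apart from treatment. The deep layer list holds FOXP2, which itself followed DRD1 over the 35 animals (r = 0.849). Over all genes, the adjusted fits of F2 females called between 0 and 963. Whether layer content accounts for the DRD1 difference was not tested. With the striatal, astrocyte or cortical excitatory neuron lists, it was 0.71, 1.15 and 0.86, and the call was kept (FDR 0.018, 0.018 and 0.00089). CTGF, a marker of the deepest layer, was the single deep layer marker called without adjustment (log2 fold change 1.06, FDR = 0.044), and MEF2C was the single upper layer marker (-0.54, FDR = 0.049).

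In F1 females, DRD1 ran the other way. The Control animals had 131, 60.3, 71.0 and 89.8 CPM, and the Beta animals had 47.2, 64.8, 41.5 and 55.5 CPM. In this table, 3 of 4 Beta animals were below every Control animal and animal 2 lay among them. The log2 fold change of -0.75 (SE 0.24) did not pass the test (FDR = 0.060, edgeR), although it did with the likelihood ratio test (FDR = 0.018) and with DESeq2 (FDR = 0.014). Without Control animals 1 and 4, it was -0.31 (FDR = 0.25), without Control 2 alone it was -0.90 and called (FDR = 0.038), and with PPP1R1B in the model it was -0.21 (SE 0.34, FDR = 0.72). In place of PPP1R1B, the oligodendrocyte, deep layer and upper layer lists gave -0.93, -0.88 and -0.72, each called (FDR 0.025, 0.032 and 0.039), and the striatal, astrocyte and cortical excitatory neuron lists gave 0.14, -0.54 and -1.20, none of them called (FDR 0.81, 0.60 and 0.052). In F3 females, Control animals had 59.7, 52.8, 96.8 and 54.7 CPM and Beta animals had 42.4, 50.03, 34.1 and 63.0 CPM. The groups overlapped, and the log2 fold change was -0.48 (FDR = 0.32) without and -0.11 with the adjustment. F1 male Controls spanned 19.8 to 41.0 CPM, the Beta males all lay within this range (28.1 to 35.4 CPM), and the log2 fold change was 0.10 (FDR = 0.74).

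**Figure D1:**
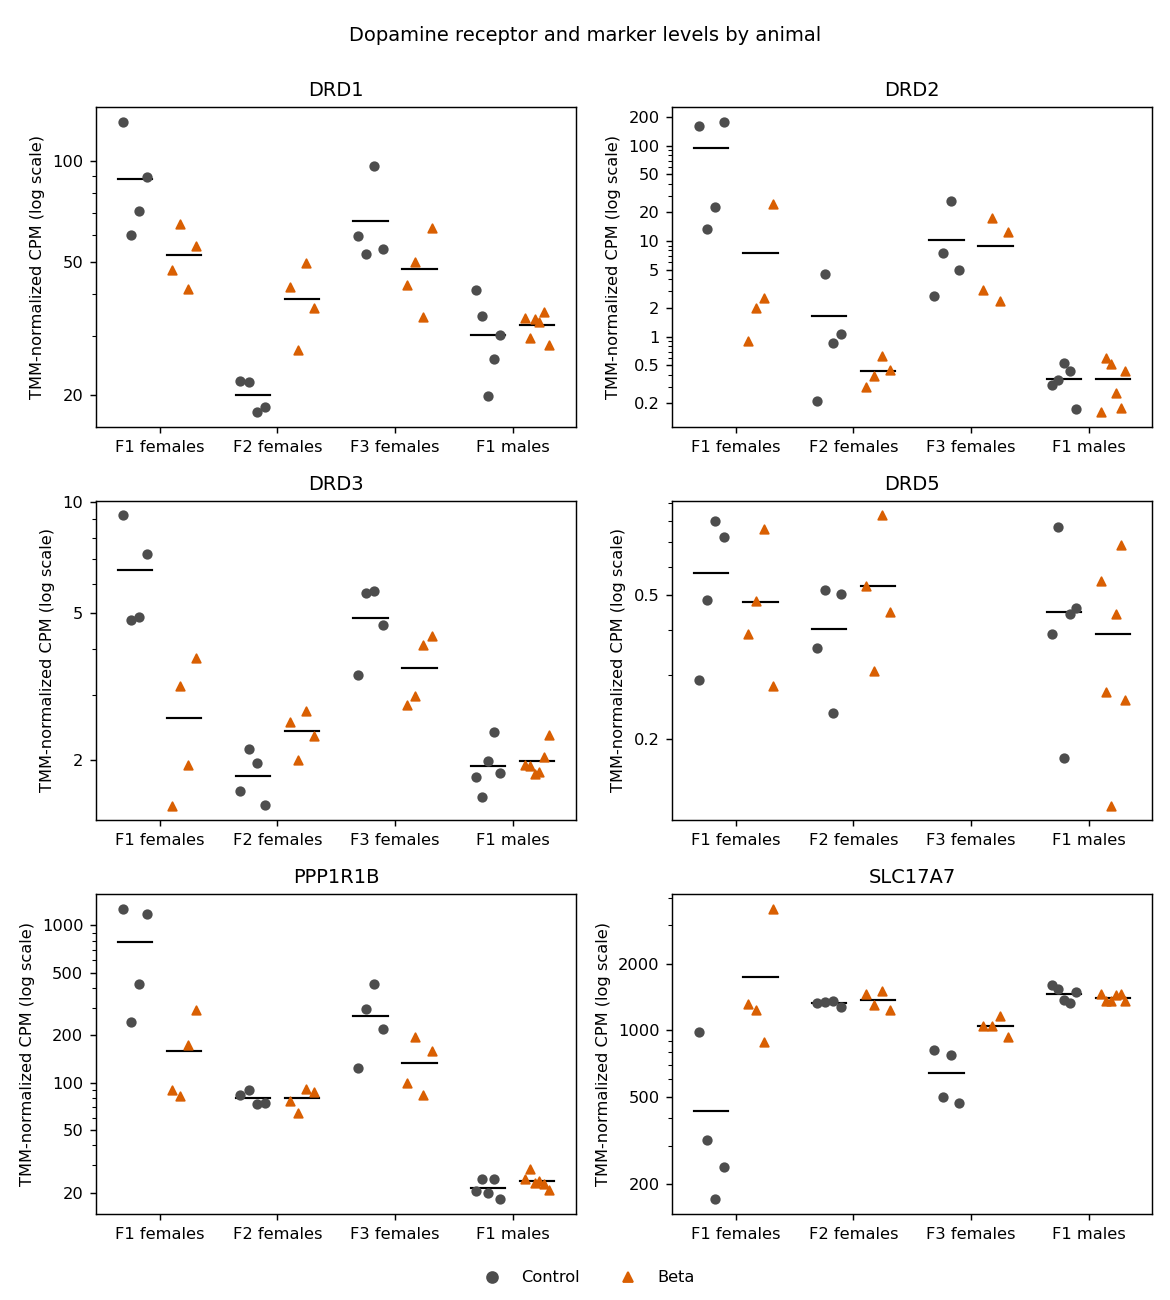
Levels of the dopamine receptor genes, of the striatal gene PPP1R1B and of the cortical gene SLC17A7 in each animal, as TMM-normalized CPM on a log axis. Circles are Control and triangles Beta animals, and bars are group means. F2 Beta females lie above F2 Controls for DRD1, F1 Beta females lie below F1 Controls for DRD3, and DRD2 spans 0.161 to 179 CPM over the 35 animals. DRD5 was not analysed in F3 females.

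DRD3, a D2-class receptor that is sparse in cortex, was lower in F1 Beta females. It had 9.22, 4.77, 4.88 and 7.23 CPM in Control animals and 1.497, 3.17, 1.94 and 3.78 CPM in Beta animals. All 4 Beta animals were below all 4 Controls, a separation shared by 11.1% of the genes in this table. The means were 6.52 ± 2.12 and 2.60 ± 1.06 CPM (SD, n = 4 each), a log2 fold change of -1.33 (SE 0.33, FDR = 0.029, edgeR). This was the only one of the 5 members tested in F1 females that was called lower, where 7.33% of all genes were called lower. The highest levels were those of Control animals 1 and 4, which also had the most PPP1R1B. Without both, the log2 fold change was -0.87 (FDR = 0.13), and with PPP1R1B in the model it was -0.54 (SE 0.39, FDR = 0.38). It was not called with the striatal list (-0.21, FDR = 0.77) or the astrocyte list (-1.001, FDR = 0.47) in that place either. The call was kept with the oligodendrocyte list (-1.52, FDR = 0.020), the deep layer list (-1.51, FDR = 0.019), the upper layer list (-1.34, FDR = 0.011) and the cortical excitatory neuron list (-2.01, FDR = 0.030). Leaving out Control 3, Control 4, Beta 1 or Beta 3 alone also ended the call (FDR 0.052 to 0.069).

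DRD3 counts were low, with 21 to 158 reads per library in the females. In F2 females, Control animals had 1.64, 2.13, 1.96 and 1.51 CPM and Beta animals had 2.53, 1.996, 2.71 and 2.32 CPM. Here 3 of 4 Beta animals were above all Controls, but the log2 fold change of 0.41 (SE 0.19) did not pass the test (FDR = 0.33). In F3 females, DRD3 had 3.40, 5.66, 5.73 and 4.64 CPM in Control and 2.81, 2.97, 4.09 and 4.32 CPM in Beta animals. The groups overlapped, with a log2 fold change of -0.46 (FDR = 0.31). The males had between 1.58 and 2.38 CPM in both groups (log2 fold change 0.04, FDR = 0.88).

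DRD2, the receptor of the indirect-pathway neurons of the striatum, varied more between animals than any other member. F1 Control females had 162, 13.4, 22.9 and 179 CPM, and F1 Beta females had 0.911, 2.0, 2.56 and 24.3 CPM. The same Control animals, 1 and 4, were far above the rest, and Beta animal 4 was above Controls 2 and 3. The log2 fold change of -3.68 carried an SE of 1.13 and an FDR of 0.057 (edgeR). It passed the test with the likelihood ratio test (FDR = 0.013) and with DESeq2 (FDR = 0.018), and in the quasi-likelihood test without Control 2 (-4.04, FDR = 0.044) or without Beta 4 (-5.70, FDR = 0.030). Without Controls 1 and 4, it was -1.27 (FDR = 0.44), and with PPP1R1B in the model it was 0.23 (SE 0.52, FDR = 0.80). With the oligodendrocyte or upper layer list in place of PPP1R1B, it was -4.39 and -4.00 and called (FDR 0.027 and 0.0072). The deep layer, cortical excitatory neuron and astrocyte lists gave -4.10, -6.40 and -4.25 and the striatal list gave 1.11, none of them called (FDR 0.062, 0.054, 0.41 and 0.23).

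In F3 females, DRD2 had 2.65, 7.45, 26.2 and 4.96 CPM in Control and 3.10, 17.6, 2.35 and 12.4 CPM in Beta animals. The groups overlapped throughout, and the unadjusted log2 fold change was -0.20 (SE 0.77, FDR = 0.93). Adjusted for PPP1R1B, it was 1.89 (SE 0.30), which edgeR's quasi-likelihood test did not call (FDR = 0.070) unless Control 1 was left out (2.54, FDR = 0.013). It was called by the likelihood ratio test (FDR = 2.57e-06), by DESeq2 (FDR = 1.94e-05) and with the whole striatal list in place of PPP1R1B (1.78, FDR = 0.026). With the astrocyte, oligodendrocyte, deep layer or cortical excitatory neuron list in that place, the sign turned, with values of -0.32, -0.78, -0.14 and -2.08. The F2 females and F1 males carried little DRD2. F2 Control females had 3, 61, 11 and 15 reads and F2 Beta females had 5, 5, 9 and 6 reads, too few to pass the filter on low counts. Control animal 2 alone stood high, and the mean CPM did not differ in an exact two-sided permutation test (n = 4 each, p = 0.143, adjusted p = 0.429, smallest possible p = 0.0286). The males had 5 to 18 reads, with a log2 fold change of -0.01 (FDR = 0.994).

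The level of DRD2 followed that of PPP1R1B from animal to animal within a group. For each unit of log2 PPP1R1B, log2 DRD2 rose by 1.80 in F1 females (SE 0.20, FDR = 0.0093, edgeR) and by 2.13 in F3 females (SE 0.20, FDR = 0.0048). Such a slope was called for 1.32% of all genes in F1 females, 0.0629% in F2 females, 0.236% in F3 females and 0% in F1 males, and DRD2 was the only member with a called slope in any table. The DRD1 slopes in F1 and F3 females were shallower, at 0.23 (SE 0.11, FDR = 0.32) and 0.40 (SE 0.15, FDR = 0.58), and that in F2 females was 1.26 (SE 0.33, FDR = 0.16). Those of DRD3 in F1 and F3 females were 0.35 (SE 0.14, FDR = 0.20) and 0.26 (SE 0.17, FDR = 0.87). The slope of RASD2, another striatal marker, was called in F1 females (0.92, FDR = 0.0066) and F3 females (1.065, FDR = 0.00068). It was not called in F2 females (0.48, FDR = 0.395) or F1 males (-0.24). That PPP1R1B follows striatal RNA is therefore not shown in F2 females and F1 males. After group means were subtracted, the Pearson correlation of DRD2 with PPP1R1B was 0.933 over the 8 F1 females and 0.960 over the 8 F3 females, both measured in the same libraries. It was 0.320 in F2 females and 0.324 in F1 males, in which DRD2 was near its detection limit.

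**Figure D2:**
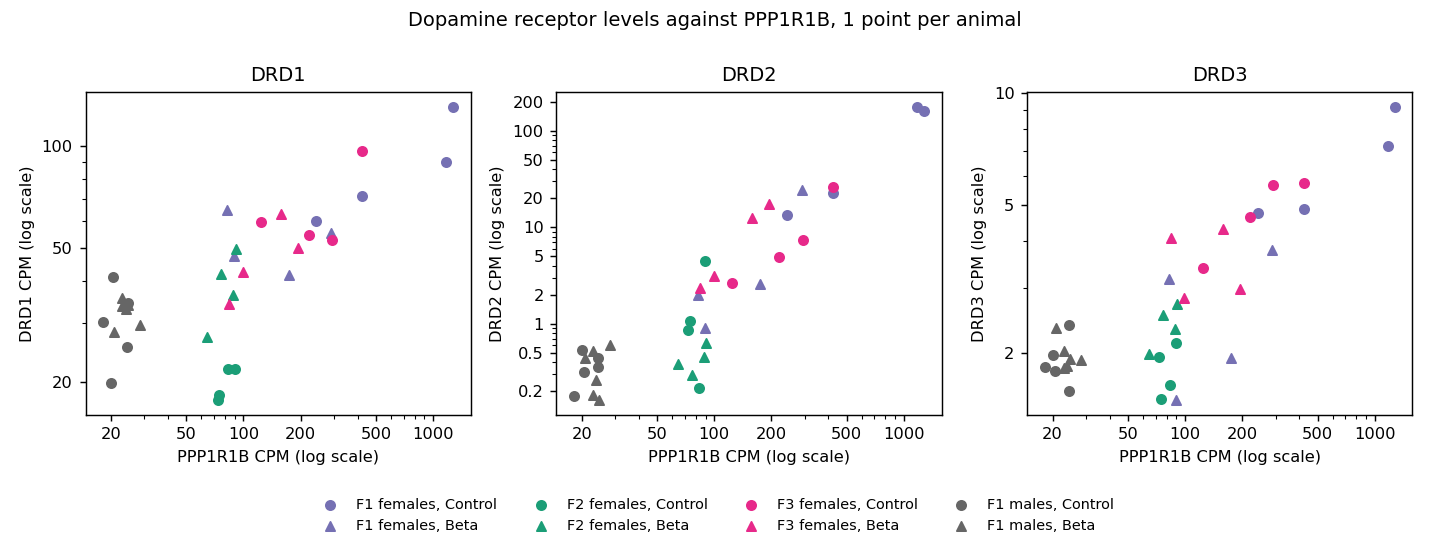
Level of DRD1, DRD2 and DRD3 against PPP1R1B, both as TMM-normalized CPM on log axes, with 1 point per animal. Colours mark the 4 tables, circles Control and triangles Beta animals. DRD2 rises along with PPP1R1B through the F1 and F3 females, with slopes of 1.80 and 2.13 on the log2 scale, and F2 Beta females sit above F2 Controls for DRD1 at similar PPP1R1B.

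DRD5, the second D1-class receptor, was scarcely measured, with 3 to 22 reads per library. F1 Control females had 5, 7, 12 and 11 reads and F1 Beta females had 6, 7, 11 and 4 reads. F2 Control females had 5, 7, 3 and 7 reads and F2 Beta females had 9, 4, 12 and 6 reads. Groups overlapped in each table. In exact two-sided permutation tests with n = 4 per group, CPM did not differ in F1 females (p = 0.543) or F2 females (p = 0.400), with an adjusted p of 0.543 for each of these over the 3 such tests. In males, the log2 fold change was -0.21 (SE 0.41, FDR = 0.80, edgeR). A difference in DRD5 was not detectable at this depth.

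Without adjustment, the response of DRD1 and DRD3 differed between F1 females and both F2 females and F1 males. The interaction, the log2 fold change in F2 females minus that in F1 females, was 1.71 for DRD1 (SE 0.32, FDR = 0.0050, edgeR) and 1.74 for DRD3 (SE 0.40, FDR = 0.014). Such a difference was called for 13.8% of all genes. Between F1 males and F1 females, it was 0.85 for DRD1 (SE 0.29, FDR = 0.031) and 1.38 for DRD3 (SE 0.33, FDR = 0.0042), in a comparison where 31.7% of genes were called. In both pairs, 2 of the 6 members tested were called, which in the F1 male pair was near the share over all genes. Between F3 and F1 females, the differences were 0.26 for DRD1 (FDR = 0.76) and 0.86 for DRD3 (FDR = 0.32), and 0 of 5 members were called, against 0.0981% of all genes. Between F3 and F2 females, the DRD1 difference of -1.44 (SE 0.31) had an FDR of 0.077, or 0.041 without F3 Beta animal 4. Here 0 of 5 members were called and 0.018% of all genes were. Once PPP1R1B was added, none of these 4 pairs held a called member, while 17.3%, 28%, 2.32% and 0% of all genes were called in the order above, and DRD1 came closest, at 1.08 between F2 and F1 females (FDR = 0.051). The pairs share the F1 or F2 animals and are not independent of each other. F1 males also had deeper libraries (25697953 to 31763585 reads) than F1 females (13908007 to 16951061), in a separate table. Sex therefore cannot be told apart from table and depth in that pair.

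**Figure D3:**
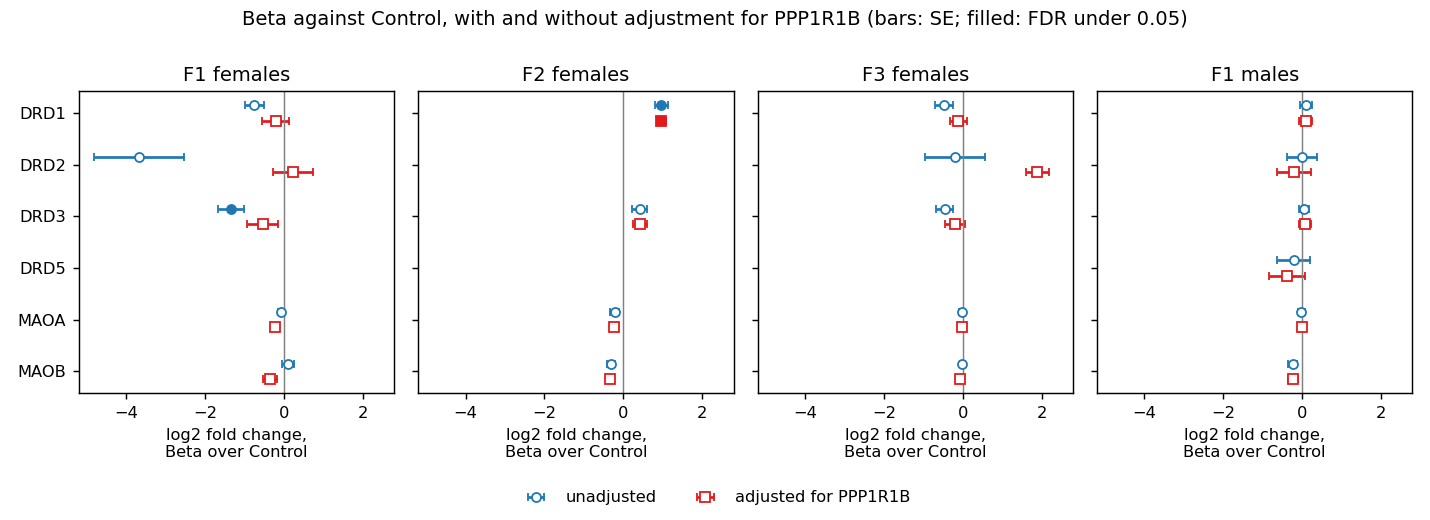
Log2 fold change of Beta over Control for each member in each table, without (circles) and with (squares) PPP1R1B in the model. Bars are standard errors and filled symbols passed an FDR of 0.05. DRD1 in F2 females is at 0.96 in both fits, DRD2 in F1 females moves from -3.68 to 0.23, and MAOA and MAOB lie between -0.36 and 0.11 throughout. Rows without a symbol were not tested or not analysed.

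Neither monoamine oxidase was called in any table. Over all 35 animals, MAOA spanned 32.7 to 51.6 CPM and MAOB 106 to 199 CPM, whereas DRD1 spanned 17.7 to 131 CPM. Within groups, their spread was not always the narrower. In F1 Beta males, the highest MAOB level was 1.475 times the lowest, against 1.26 for DRD1 and 1.283 for DRD3. MAOA had 33.2, 39.4, 37.9 and 36.6 CPM in F1 Control females and 32.7, 38.1, 33.3 and 34.5 CPM in F1 Beta females. The groups overlapped, with a log2 fold change of -0.09 (SE 0.08, FDR = 0.44, edgeR). In F2 females, MAOA had 40.8, 42.9, 51.6 and 44.1 CPM in Control and 33.5, 47.2, 35.8 and 37.4 CPM in Beta animals. The Beta animals other than animal 2 were below all Controls, and the log2 fold change was -0.22 (SE 0.11, FDR = 0.37). In F3 females and F1 males, the log2 fold changes were both -0.02 (SE 0.06 and 0.08). The 8 F3 females lay between 39.3 and 46.6 CPM.

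MAOB was lower on average in Beta animals of F2 females and F1 males, without passing the test. F2 Control females had 159, 187, 183 and 199 CPM and F2 Beta females had 152, 166, 120 and 147 CPM. Beta animal 2 lay among the Controls and the other 3 Beta animals lay below them. The means were 182 ± 17.0 and 146 ± 19.6 CPM (SD, n = 4 each), with a log2 fold change of -0.31 (SE 0.10, FDR = 0.16, edgeR). Adjusted for PPP1R1B, it was -0.33 (SE 0.08, FDR = 0.060). It was then called by the likelihood ratio test (FDR = 0.0076) and DESeq2 (FDR = 0.0067), and by the quasi-likelihood test without Control 1 (FDR = 0.030) or Beta 4 (FDR = 0.043), and it was 0.04 (FDR = 0.97) with the oligodendrocyte list as the covariate. F1 male Controls had a median of 154 CPM (127 to 190) and F1 male Beta animals a median of 127 CPM (113 to 167). Of the 6 Beta males, 3 were below all Controls, and the log2 fold change was -0.24 (SE 0.11, FDR = 0.19, edgeR). Without Beta male 6, it was -0.31 and called (FDR = 0.042). In the same males, all 8 oligodendrocyte markers tested were called higher in Beta animals, beside 5.74% of all genes. Their summed level was 3533 to 6672 CPM in Control and 7534 to 12890 CPM in Beta animals. MAOB was at 0.17 with that list as the covariate. F1 females had 106, 144, 144 and 130 CPM in Control and 155, 177, 113 and 119 CPM in Beta animals, with a log2 fold change of 0.11 (FDR = 0.67) that became -0.36 (FDR = 0.18) with PPP1R1B in the model. In F3 females, it was -0.01 (FDR = 0.97).

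**Figure D4:**
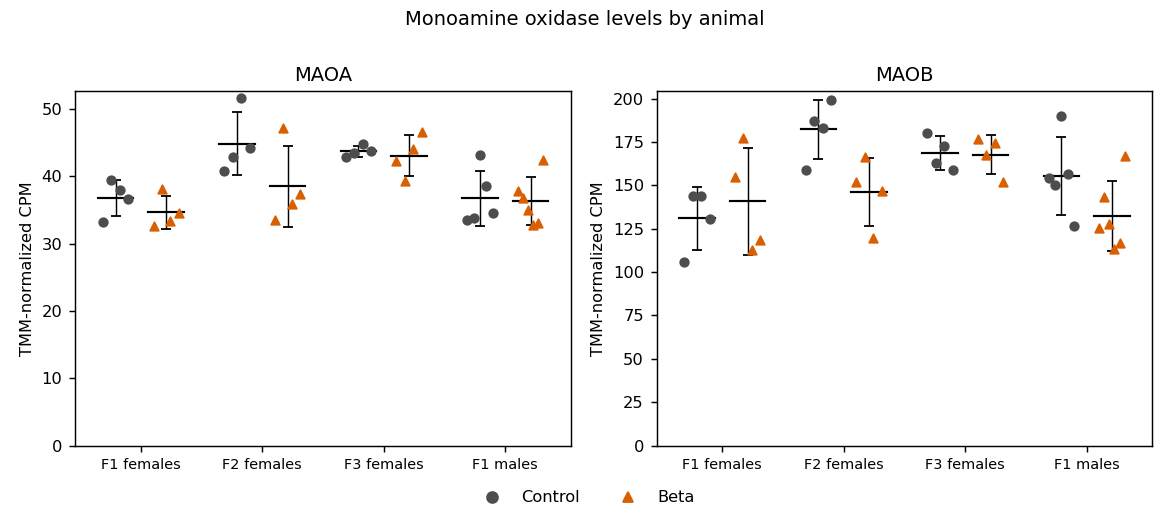
Levels of MAOA and MAOB in each animal, as TMM-normalized CPM on axes that start at 0. Circles are Control and triangles Beta animals, horizontal bars are group means and vertical bars SD. MAOA stays between 32.7 and 51.6 CPM in all 35 animals, and F2 Beta females average 146 CPM of MAOB against 182 CPM in Controls.

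Counted over the members, 1 of the 5 tested in F1 females was called (DRD3, lower), beside 16.5% of all genes in either direction. In F2 females, 1 of 4 was called (DRD1, higher), beside 0.278% of all genes in either direction and 0.153% called higher. In F3 females, 0 of 5 were called, beside 1.34%, and in F1 males 0 of 6, beside 9.22%. By p alone, before adjustment over genes, 3, 2, 0 and 1 members were under 0.05. With PPP1R1B in the model, 0 of 5, 1 of 4, 0 of 5 and 0 of 6 members were called, beside 16.4%, 3.8%, 0.0175% and 5.42% of all genes, and 0, 4, 1 and 0 members had a raw p under 0.05. In F1 females, both the likelihood ratio test and DESeq2 called 3 members without the adjustment, beside 2100 and 2423 of 11268 genes. With the adjustment, both called 0 members. The median log2 fold change of the tested members was -0.75 in F1 females, beside -0.03 over all genes, and 0.10, -0.20 and -0.01 in F2 females, F3 females and F1 males, beside 0.01, -0.01 and -7.3e-05 over all genes.

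Genes with a pattern like that of each member were sought among the 10724 other genes tested in all 4 tables, by Pearson correlation of log2 CPM over the 35 animals after group means were subtracted. DRD1 was most like STRIP2 (r = 0.879), KCNAB1 (r = 0.857) and FOXP2 (r = 0.849), the last of which is among the deep layer markers. Within single tables, the correlation of DRD1 with STRIP2 was between 0.879 and 0.956. DRD3 was less closely matched, by CD302 (r = 0.722), SYNDIG1L (r = 0.693) and KNSTRN (r = 0.689), and that with CD302 ranged from -0.01 to 0.985 between tables. MAOA was most like TOB1 (r = 0.805), EPB41L4A (r = 0.789) and KIAA1147 (r = 0.773), and MAOB most like RSG1 (r = 0.849), SNCG (r = 0.832) and CMSS1 (r = 0.825). MAOA and MAOB correlated with each other at 0.598 over all animals, at 0.725, 0.501 and 0.849 in F1 females, F2 females and F1 males and at -0.422 in F3 females. DRD1 with MAOA was at -0.491 over all animals, at -0.335, -0.851 and -0.819 in those 3 tables and at 0.292 in F3 females. All points share a library, so depth and composition enter each of these values.

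Of the genes that make, store or take up catecholamines, 6 were tested in F1 females and 1 was lower, beside the 7.33% of all genes called lower. This was SLC29A4, the plasma membrane monoamine transporter, at 8.97 ± 0.86 CPM in Control and 5.28 ± 1.60 CPM in Beta animals (SD, n = 4 each; log2 fold change -0.76, FDR = 0.039, edgeR). None of 6 in F2 females and none of 7 in F3 females was called by edgeR. In F1 males, 1 of 8 was higher, beside 5.74% of all genes, namely QDPR, which regenerates the cofactor of tyrosine hydroxylase (log2 fold change 0.21, FDR = 0.031). After adjustment for PPP1R1B, SLC29A4 and QDPR were lower in F1 Beta females (-1.11, FDR = 0.044, and -0.78, FDR = 0.0079), and the call of QDPR in males was lost. The median log2 fold changes of this list were -0.37, 0.12, -0.10 and -0.13 in F1, F2 and F3 females and F1 males. Among 5 other genes of catecholamine and aldehyde metabolism, ALDH7A1, an aldehyde dehydrogenase, was lower in F1 Beta females (-0.43, FDR = 0.012) and higher in F1 Beta males (0.20, FDR = 0.013). In those males, AKR1B1, an aldose reductase, was lower (-0.17, FDR = 0.039). After adjustment, ALDH7A1 kept its call in males (0.20, FDR = 0.037) and lost it in F1 females, where ALDH5A1 was then lower (-0.38, FDR = 0.015), and the AKR1B1 call was lost. In F2 and F3 females, 0 of 5 were called by edgeR.

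Of 33 genes of dopamine receptor signalling, 7 were higher and 7 lower in F1 Beta females, beside 9.21% of all genes called higher and 7.33% called lower. The largest rises were those of KCNJ3 and KCNJ6, subunits of the G protein-gated potassium channels that D2-class receptors open. KCNJ3 was at 48.5 ± 7.25 CPM in Control and 102 ± 15.8 CPM in Beta animals (SD, n = 4 each; log2 fold change 1.07, FDR = 0.0039, edgeR), and KCNJ6 rose by 0.79 (FDR = 0.046). PPP1R1B and RGS9 fell furthest. RGS9, which speeds the shut-off of inhibitory G proteins and is among the striatal markers, changed by -1.58 (FDR = 0.022). With PPP1R1B in the model, 7 of 32 were higher, KCNJ3 (1.38, FDR = 0.0042) and KCNJ6 (1.30, FDR = 0.024) among them, and 2 were lower, beside 8.2% and 8.17% of all genes. None of the 33 was called in F2 females by edgeR. In F3 females, GNAS, which encodes the stimulatory G protein subunit, was higher (0.33, FDR = 0.047), and GPR52, a receptor coupled to that protein, was lower, with 7.94 ± 4.29 CPM in Control and 1.56 ± 0.45 CPM in Beta animals (SD, n = 4 each; log2 fold change -2.31, FDR = 0.047). In this table, 1.07% of all genes were called higher and 0.271% lower, and with the adjustment 0 of 32 signalling genes were called, so both calls were lost. In F1 males, 0 were higher and 4 lower, beside 5.74% and 3.48% of all genes, led by GRK3, a receptor kinase (-0.41, FDR = 0.022), and CALY, which binds the D1 receptor (-0.27, FDR = 0.042). With the adjustment, both of these calls were lost and 1 of 32 genes was lower, PRKACB, a catalytic subunit of protein kinase A (-0.26, FDR = 0.041).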

How the data were processed

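RNA from PFC punches of 35 guinea pigs, 1 library per animal, had been sequenced by the authors, who, per the labels, used TopHat2 and edgeR. The read counter and genome build are not given in the sources used here, and the library kit does not mark strand. The deposited tables hold raw counts, 1 whole number for each gene symbol and animal. They also hold the authors' own log2 fold changes, mean log2 CPM, likelihood ratio scores, p-values and FDR, which were not used.

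Analysis was done with edgeR 4.0.16 and limma 3.58.1 under R 4.3.3 (filterByExpr with a minimum count of 10 and a minimum total of 15, TMM, quasi-likelihood test, Benjamini-Hochberg over all genes). PPP1R1B entered as log2 CPM with a prior count of 2. A marker list entered as the mean log2 CPM of its genes, without the members and PPP1R1B. The study's likelihood ratio test, DESeq2 1.42.0, RLE normalization, no filter, other marker lists as covariates, a replicate block and leaving out 1 animal at a time were alternatives. The cortical marker lists as covariates and the omission of both F1 female Controls rich in PPP1R1B were chosen after seeing the data. Methods were tested on simulated data. Named are the members, PPP1R1B and, per pathway list and comparison, up to 2 called genes with the largest change in each direction. Further genes, such as CTGF, MEF2C, RASD2 and SLC17A7, were named after their values were seen. The members and lists were chosen with earlier results of these data known. Some results are not reported here. Samples were grouped by their labels. Library totals ranged from 12819964 to 31763585, and this depth limits DRD5 and, in F2 females and F1 males, DRD2. Paralogs and genes that overlap may share reads, which the tables do not show.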

Additional observations from a re-analysis of the deposited data

Results flagged for a closer look

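Of 46 combinations of a member and a group examined for an animal far from the others, 2 met Dixon's criterion, where chance flags about 1 in 20. DRD2 in F1 Beta female 4 was 24.3 CPM, and the nearest of the other 3 Beta animals was at 2.56 CPM. Without this animal, the log2 fold change of DRD2 in F1 females was -5.70 (FDR = 0.030, edgeR) in place of -3.68, and that adjusted for PPP1R1B was -1.05 (FDR = 0.18) in place of 0.23. DRD1 in F3 Control female 3 was 96.8 CPM, and the nearest of the other 3 Controls was at 59.7 CPM.

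The difference in response between groups passed the test for 2 of 6 members in 2 pairs. Over all genes, 13.8% were called between F2 and F1 females and 31.7% between F1 males and F1 females. Relative to F1 females, the log2 fold change of DRD1 was higher by 1.71 in F2 females and by 0.85 in F1 males, and that of DRD3 was higher by 1.74 in F2 females and by 1.38 in F1 males. With PPP1R1B in the model, these differences were 1.08, 0.27, 0.92 and 0.56, and none was called (FDR = 0.051, 0.64, 0.13 and 0.28, edgeR). The DRD1 difference between F1 males and F1 females was no longer called without F1 Control female 1 (0.58, FDR = 0.078), F1 Beta female 1 (0.80, FDR = 0.0595), F1 Beta female 3 (0.75, FDR = 0.066) or F1 Control male 4 (0.79, FDR = 0.053). Without F1 Beta female 4, the DRD2 difference in this pair was called (5.69, FDR = 0.012).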

How the results depend on the processing

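The members called in the unadjusted comparisons numbered 1 in F1 females, 1 in F2 females and 0 in F3 females and F1 males. RLE normalization and the absence of a filter on low counts left the count of members as it was in all 12 comparisons. In F1 females, the likelihood ratio test and DESeq2 called 3 members, beside 2100 and 2423 of 11268 genes. Leaving out both Controls rich in PPP1R1B called 0, beside 1707 of 11338 genes, with MAOB then at -0.0085. With PPP1R1B in the model, the likelihood ratio test and DESeq2 called 2 members in F2 females and 1 in F3 females. Without it, they called 1 in the difference between F3 and F2 females. In place of PPP1R1B in F1 females, the oligodendrocyte and upper layer lists called 3 members, the deep layer list 2 and the cortical excitatory neuron list 1. In F2 females, the oligodendrocyte, deep layer and upper layer lists called 0 and the cortical excitatory neuron list 2. The striatal list called 1 in F3 females and the cortical excitatory neuron list 1 in F1 males. Over all genes, calls in fits with a covariate, those leaving out 1 animal included, ranged widely. They numbered 110 to 2917 in F1 females, 0 to 963 in F2 females, 0 to 200 in F3 females and 0 to 1639 in F1 males. In the difference between F3 and F2 females, 0 to 126 genes were called. With PPP1R1B as a covariate, 0 members were called in the differences of F2 females and of F1 males from F1 females, beside 17.3% and 28% of all genes. The cause of these changes was not tested.

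The replicate numbers did not pair the animals. Deviations of same-numbered animals correlated between -0.29 and 0.322, and 3 of 34 animals correlated best with their own number. With the number as a replicate block, 0 members were called in F2 females and 1 in F1 males unadjusted, and 2 in F2 females with PPP1R1B in the model. Over all alternatives, unadjusted fits called 0 to 534 genes in F2 females and 667 to 1613 in F1 males. Fits of F2 females with a covariate called 0 to 963. In F1 females, 1 member was still called under the block, beside 1080 of 11268 genes. The call passed from DRD3 (-1.34, FDR = 0.057, edgeR) to DRD2 (-3.83, FDR = 0.030). In the difference between F1 males and F1 females, DRD1 lost its call (FDR = 0.0504) and DRD2 gained one (FDR = 0.044). Under this block and adjustment, signs turned for DRD1 and DRD3 in F1 females (0.24 and 0.13), DRD1 in F3 females (0.19) and DRD3 and MAOA in F1 males (-0.29 and -0.21).

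The following log2 values have the opposite sign to the fit with PPP1R1B as the covariate, not necessarily to the unadjusted value. The astrocyte list gave -4.25, 0.085 and 0.56 for DRD2, MAOA and MAOB in F1 females, -0.32 for DRD2 in F3 females and 0.19, -0.093 and -0.12 for DRD2, DRD3 and MAOA in F1 males. The oligodendrocyte list gave -4.39, 0.0083 and 0.33 for DRD2, MAOA and MAOB in F1 females, 0.14 and 0.042 for MAOA and MAOB in F2 females, -0.78 for DRD2 in F3 females and -0.49, 1.49 and 0.17 for DRD1, DRD2 and MAOB in F1 males. The cortical excitatory neuron list gave -6.40, 0.022 and 0.46 for DRD2, MAOA and MAOB in F1 females, -2.08 and 0.015 for DRD2 and MAOA in F3 females and -0.011, 0.18 and -0.095 for DRD3, DRD5 and MAOA in F1 males. The deep layer list gave -4.10 and 0.022 for DRD2 and MAOB in F1 females, 0.14 for MAOA in F2 females, -0.14 for DRD2 in F3 females and 0.18 for DRD2 in F1 males. The upper layer list gave -4.00 and 0.13 for DRD2 and MAOB in F1 females, 0.23 for MAOA in F2 females and -0.15 and 0.30 for DRD1 and DRD2 in F1 males. The striatal list gave 0.14 for DRD1 in F1 females and -0.12 and 0.48 for DRD1 and DRD2 in F1 males. With PPP1R1B as the covariate, the differences from F1 females turned against their unadjusted values for DRD2, MAOA and MAOB in F2 females (-2.15, 0.033 and 0.051), DRD1 and MAOB in F3 females (-0.15 and 0.081) and DRD2 and MAOB in F1 males (-0.51 and 0.12).

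With single animals left out, members called ranged from 0 to 3 in F1 females and from 0 to 1 in F2 females and F1 males, and with PPP1R1B from 1 to 3 in F2 females and 0 to 1 in F3 females. They ranged from 0 to 1 in the difference between F3 and F2 females and from 1 to 3 in that between F1 males and F1 females. Signs turned for MAOB in F1 females (-0.025 to 0.20), for DRD2, MAOA and MAOB in F3 females (-0.80 to 0.84, -0.061 to 0.020 and -0.037 to 0.036) and for DRD1, DRD2, DRD3, DRD5 and MAOA in F1 males (-0.020 to 0.23, -0.18 to 0.17, -0.018 to 0.14, -0.45 to 0.072 and -0.067 to 0.048). With PPP1R1B, they turned for DRD2 in F1 females (-1.05 to 0.90), DRD1, DRD3 and MAOA in F3 females (-0.27 to 0.33, -0.54 to 0.10 and -0.082 to 0.076) and DRD1, DRD3, DRD5 and MAOA in F1 males (-0.021 to 0.20, -0.037 to 0.25, -0.69 to 0.033 and -0.087 to 0.054). Differences from F1 females turned for MAOB in F3 females (-0.20 to 7.7e-05) and DRD5 in F1 males (-0.20 to 0.34).

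Over all genes and alternatives, calls ranged from 613 to 2423 in F1 females, 0 to 534 in F2 females, 20 to 632 in F3 females and 667 to 1613 in F1 males. With PPP1R1B or another covariate, the ranges were 110 to 2917, 0 to 963, 0 to 200 and 0 to 1639. Differences from F1 females ranged from 808 to 1929 in F2 females, 0 to 260 in F3 females and 3007 to 3785 in F1 males, and that between F3 and F2 females from 0 to 126.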
